A study of Mus musculus with 8 samples.

Results

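ETn elements and related endogenous retroviruses of the mouse were examined in small RNA from sperm. The members are the transposon rows whose repeat name starts with ETn, MMETn, RLTRETN, ERVB, MMERVK, RLTR10, RLTR13, RLTR44, RLTR51, RMER, BGLII or MYSERV. This gave 138 names of 1121 transposon names, with 66196 of 783825 transposon rows. A row is 1 annotated copy counted on 1 strand, sense or antisense to the repeat, and the rows came from 57245 copies, of which 8951 were listed on both strands. Counts were summed per name and strand, which gave 137 sense and 136 antisense names. The libraries were 4 labelled control and 4 labelled ethanol, all from sperm total RNA extracted with Trizol, and the series title places the ethanol samples 1 month after alcohol ended. The sources used here give no strain, age, dose or route. The labels do not tie samples to animals, so each p-value speaks only of the spread among these libraries, which may be technical.

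Endogenous retroviruses are remnants of retroviral infections of the germ line. A full copy has an internal part with viral genes, whose names here end in -int, between long terminal repeats (LTRs) that hold its promoter, and many copies are solitary LTRs. ETn, the early transposon, codes for no proteins of its own and moves with those of its relative MusD; its insertions are a known source of new mutations in laboratory mice. In male germ cells PIWI-bound small RNAs (piRNAs), made from clusters and from transposon transcripts, silence such elements: antisense piRNAs pair with transposon transcripts, and sense piRNAs come from those transcripts. Mature sperm keep part of the small RNA made in the testis.

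The name ERVK holds for most but not all members. The table itself places 126 of the 138 names in the ERVK family, and they held 65% of the 329282 member counts. RMER10A, RMER10B, RMER15 and RMER15-int are placed in ERVL and held 26.5%, while RMER2, RMER5, RMER21A and RMER21B are placed in ERV1 and held 3.41%. RMER30 is placed among hAT-Charlie DNA transposons, with 1.52% of the counts, and RMER1A, RMER1B and RMER1C each carry a family name of their own. The summed levels and the strand ratio of all members are also given for the ERVK names alone. The comparisons with IAP names and piRNA clusters and the results on single copies cover all members.

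Depth was 3481865 to 6975180 deposited counts per library, lowest in ethanol replicate 2. Levels are in CPM, where library sizes were adjusted by the trimmed mean of M values (TMM). In this factor ethanol replicate 2 stood apart, with 1.45 against 0.81 to 1.10 in the other libraries, which lowers its CPM. Marker transcripts also differed between the groups. Of 5 tested markers of epididymal epithelium 4 were higher in ethanol (edgeR adjusted p under 0.05), with sums of 438.8 to 728.9 CPM in controls and 967 to 13074 CPM in ethanol libraries. All 6 markers of other epithelium were higher, with sums of 38.4 to 76.2 against 104 to 667 CPM. Of 14 sperm and spermatid markers 0 passed, with a median log2 fold change of -0.53 and sums of 637 to 815 against 247 to 697 CPM. Of 5 tested blood and immune markers 2 were lower, with sums of 29.4 to 55.4 against 8.47 to 32.0 CPM. They were the globins Hba-a1 and Hba-a2, whose values were nearly the same in each library. Cd74, the only tested one that is not a globin, had a log2 fold change of -0.25 ± 0.38 and overlapped. Over all features tested, edgeR called 11.8% higher and 1.75% lower, and 23.8% of mRNA exon features were called higher. None of the defining markers was at 0 in all libraries, and the part of these differences in the values below was not tested. In bulk sperm RNA, fewer cells of a type and less RNA per cell cannot be told apart.

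Members were counted on both strands, with 148148 sense and 181134 antisense counts. Levels of names are summed over their copies and not divided by length, so they rank names by counts in the library only. RMER names, medium-reiterated rodent repeats, made up most of it. RMER17A2 had the highest sense level, with 698, 407, 643 and 977 CPM in control replicates 1 to 4 and 577, 232, 1177 and 406 CPM in ethanol replicates 1 to 4. RMER15 had the highest antisense level, with 729, 492, 577 and 828 against 566, 223, 1177 and 401 CPM. In both names ethanol replicate 3 was the highest of the 8 libraries and ethanol replicate 2 the lowest, and the groups overlapped.

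Most rows held almost nothing. Of the 66196 member rows 15571 were at 0 in every library and 47982 had 1 to 5 counts over all 8 libraries. At the other end, 52 rows with at least 1000 counts, 24 sense and 28 antisense rows of 24 names, held 56.2% of all member counts. These copies were counted on 1 strand almost alone: the median share of a copy's counts on that strand was 99.7%, the lowest 78.5%, and 50 of the 52 were over 95%. Of the 52, 20 had another copy of the same name within 10 copy numbers that also had at least 1000 counts. What the copy numbers stand for is not stated in the sources used here.

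The antisense row with the most counts was copy 4109 of RMER10A, with 19029 counts against 2 on its sense strand, and it held 86.2% of the antisense counts of its name. Scaled within the fit over single rows, it had 575, 389, 469 and 623 CPM in controls and 571, 192, 648 and 306 CPM in ethanol libraries, and the groups overlapped. Next came copy 12154 of RMER15 with 12481 counts, copy 174 of ERVB5_2-LTR_MM, a betaretrovirus-like LTR, with 7768, copy 1370 of RMER19A with 7575 and copy 2038 of RMER6C with 5693. Copy 174 of ERVB5_2-LTR_MM held 96.2% of the antisense counts of its name, so that name reads as 1 locus. Of sense rows, copy 2091 of RMER10A had 9853 counts, copies 860 and 680 of RMER17A2 had 7712 and 7603, copy 174 of RLTR13D2 had 7295 and copy 2129 of RMER19B2 had 6256. Copy 174 of RLTR13D2 had 0 counts on its antisense strand, and a count of 0 allows up to 3. None of these 10 rows passed in the fit over single rows (edgeR adjusted p 0.740 to 0.937). Their log2 fold changes lay between -0.27 and -0.08.

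In most names no single copy held most of the counts. Over names with at least 100 counts on a strand, the median share of the largest copy was 14.4% in 89 sense and 11.6% in 88 antisense names, and it was over 50% in 10 and 19 of them. Counts of the leading ETn name were spread over many copies too. The sense counts of ETnERV-int came from 171 of its 219 copies on that strand, and the largest copy held 7.55%. ETnERV-int was the ETn name with the highest sense level, with 65, 36.1, 44.9 and 66.9 CPM in controls and 51.4, 20.2, 67.4 and 28.1 CPM in ethanol. ETnERV2-int, which had the highest antisense level of the ETn names, had 31.5, 14.4, 17.8 and 23.9 against 16.9, 4.73, 15.1 and 9.13 CPM. Both overlapped between the groups. Of rows with at least 20 counts, 14 of 595 carried the same values in every library as another copy of their name and strand, among them 2 ETnERV-int rows of 137 counts, so some reads may have been counted for more than 1 copy.

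Names differed in the balance of their strands. Of 115 names with at least 100 counts, 75 had more antisense than sense counts, and the median antisense share was 54.9%. The share lay between 40 and 60% in 43 names, over 80% in 14 and under 20% in 10. The most antisense were RLTR10E with 97.8%, ERVB5_2-LTR_MM with 94.8% and RLTR10C with 92.8%; LTRs of the RLTR10 group are known as germ-cell enhancers. The most sense were RLTR13D2 with 4.53% antisense, RMER30 with 4.99% and RLTR44A with 5.29%. Some of these shares are those of few copies. The largest copy held 86.8% of the antisense counts of RLTR10C and 96.2% of those of ERVB5_2-LTR_MM. In RLTR13D2 the 3 largest copies held 98.7% of the sense counts. Internal parts and other names did not stand apart: 16 of 25 internal names were more antisense, with a median of 54.5%, and 59 of 90 others, with a median of 55.1%. ETnERV-int was mostly sense, with an antisense to sense ratio of 0.268, 0.413, 0.223 and 0.215 in controls and 0.251, 0.276, 0.148 and 0.157 in ethanol. The ratio of ETnERV2-int was above 1 in all 4 controls and in ethanol replicates 1 and 2.

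**Figure D1:**
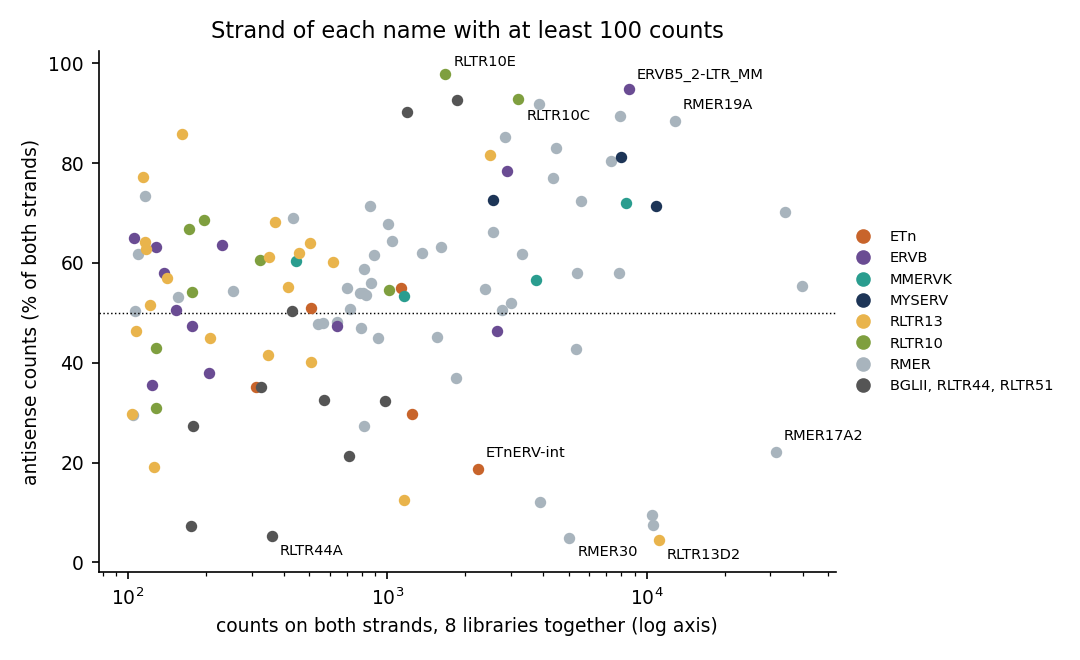
Antisense share of the counts of each name (vertical axis, percent) against its counts on both strands over the 8 libraries (log axis), for the 115 names with at least 100 counts; colours mark groups of names and the dotted line marks 50%. Names lie over the whole scale, from RLTR13D2 at 4.53% to RLTR10E at 97.8%, and the share of a name can be that of a few copies.

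The comparison asks whether counts from these elements differ between ethanol and control sperm after alcohol has ended. Summed over all members, they did not separate the groups on either strand. The sense sum was 4876, 3114, 3793 and 5191 CPM in controls and 3980, 1422, 6163 and 2380 CPM in ethanol, that is 4244 ± 962 against 3487 ± 2073 CPM (SD, n = 4; log2 difference -0.46, two-sided exact permutation p = 0.400). The antisense sum was 6180, 3804, 4761 and 6372 against 4830, 1722, 7345 and 2899 CPM (5279 ± 1218 against 4199 ± 2458; log2 difference -0.50, exact permutation p = 0.371). Ethanol replicate 3 was the highest and ethanol replicate 2 the lowest of all 8 libraries on both strands. As shares of all counts the members took 0.359% ± 0.0598 sense and 0.447% ± 0.0794 antisense in controls, and 0.330% ± 0.134 and 0.398% ± 0.159 in ethanol. The 126 names of the ERVK family alone gave log2 differences of -0.51 on both strands. Taken as a share of all sense transposon counts, the log2 difference of the sense sum was 0.03, so its sign turned there.

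**Figure D2:**
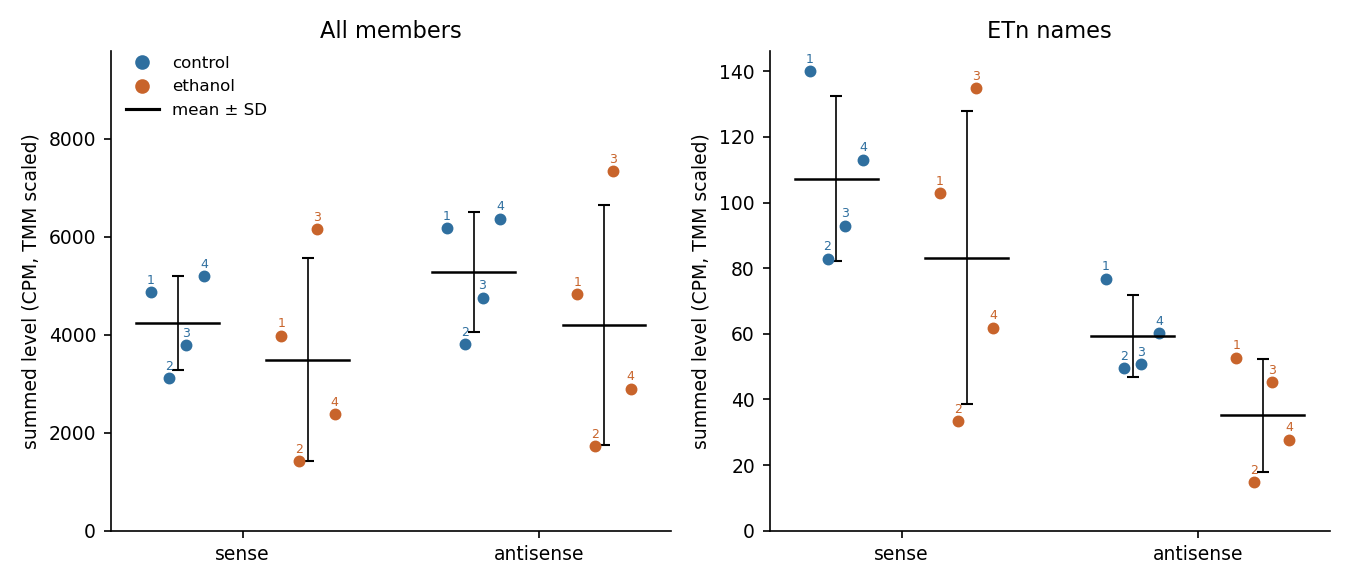
Summed level of all members (left) and of the 5 ETn names (right) in CPM, by strand; points are libraries numbered by replicate, bars are mean ± SD over 4 libraries. The ethanol libraries spread on both sides of the controls for all members, from 1422 to 6163 CPM sense, and the ETn sums overlap on both strands.

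By groups of names, the sums overlapped between ethanol and control for all but 1 of 20 sums. ETn antisense was 76.8, 49.5, 50.8 and 60.1 CPM in controls and 52.7, 14.8, 45.3 and 27.7 CPM in ethanol, and the overlap is that of ethanol replicate 1 with control replicates 2 and 3. ETn sense was 140.03, 82.9, 93 and 113 against 103, 33.3, 135 and 61.9 CPM. MMERVK names, whose member MMERVK10C-int is known to be transcribed when TRIM28 or SETDB1 is lost, had a sense sum of 145 ± 36.9 against 103 ± 50.7 CPM. MYSERV had an antisense sum of 437 ± 129 against 392 ± 252 CPM. The sum that did not overlap was RLTR51 antisense, with 11.8, 8.09, 8.54 and 12.2 CPM in controls and 7.33, 2.47, 6.45 and 7.61 CPM in ethanol, on 301 counts from 2 names. Of these, RLTR51A_Mm overlapped (log2 fold change -0.21 ± 0.39), and RLTR51B_Mm, described below, did not. Over all features tested, 6.93% were lower in ethanol without overlap.

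Name by name, 93 sense and 93 antisense members had enough counts to test. RMER6B fell on the sense strand, and RLTR51B_Mm, ERVB4_1-I_MM-int and ERVB5_1-I_MM-int fell on the antisense strand (edgeR quasi-likelihood fit with Benjamini-Hochberg adjustment over all 13513 features tested, threshold 0.05). That is 1 of 93 sense and 3 of 93 antisense members, against 1.75% of all features called lower, and 0 members rose on either strand, against 11.8% of all features called higher. At an unadjusted edgeR p under 0.05, 11 sense and 20 antisense members were lower, against 8.71% of all features, and 0 were higher, against 24.3%. DESeq2's Wald test and limma-voom also called 0 members higher, against 2316 and 1 of all 13513 features. With 1 such call in all, limma-voom could hardly show a higher member. Most other members had negative values that did not pass: 87 of 93 on each strand, with a median log2 fold change of -0.58 sense and -0.47 antisense. Other transposon names had medians of -0.53 and -0.48, and all features -0.01. Scaling by library totals moved the median of all features to 0.24 and those of the members to -0.36 and -0.28. With transposon names alone in the fit, scaling rests on transposons, which brings their fold changes as a set near 0. The median of all 1091 name and strand sums in that fit was 0.06. Those of the members were -0.02 sense and 0.06 antisense, so the antisense sign turned. Losing a shift that other transposon names shared followed from this scaling, and nothing is drawn from it. Of the other transposon names, edgeR called 1.39% of 431 sense and 0.218% of 459 antisense names lower, and 3 sense and 1 antisense name higher. At an unadjusted edgeR p under 0.05, 6 sense and 1 antisense of these other names were higher. The features called higher were mostly mRNA exon features, with 1556 of 6532 higher, so the lack of higher calls was not particular to the members. In 4 sense members every ethanol library lay below every control, against 13.7% of other sense transposon names and 6.93% of all features. The same held for 12 antisense members, against 9.59% of other antisense names. In 0 members did every ethanol library lie above every control, against 0.928% of other sense and 0.218% of other antisense names, and 14.4% of all features. Among the 12 were MMETn-int, BGLII, MMERVK10D3_I-int and RMER12, with log2 fold changes of -0.80 ± 0.42, -1.03 ± 0.39, -1.03 ± 0.42 and -0.85 ± 0.35, none past the threshold and named after their values were seen.

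**Figure D3:**
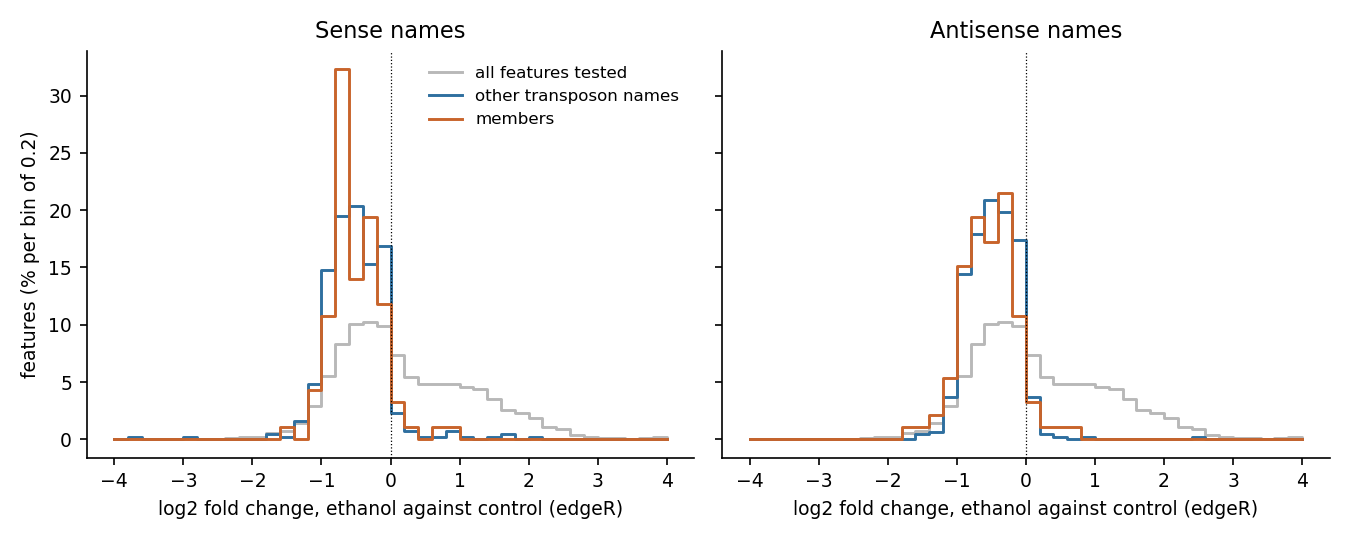
Distribution of log2 fold changes of ethanol against control (horizontal axis; values beyond 4 are put in the end bins) as percent of features per bin, for members, other transposon names and all features tested, sense on the left and antisense on the right. Members lie over the other transposon names, with medians of -0.58 and -0.53 sense, while all features reach further to the right.

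RLTR51B_Mm, an LTR, had 5.12, 4.04, 3.66 and 7.07 CPM antisense in controls and 2.30, 0.617, 1.29 and 1.86 CPM in ethanol (log2 fold change -1.66 ± 0.42 SE, edgeR adjusted p = 0.0292). Every ethanol library lay below every control library, but on 114 counts in all, of which the largest copy held 5.26%. Its sense strand had a log2 fold change of -0.61 ± 0.44 and overlapped. ERVB4_1-I_MM-int, a betaretrovirus-like internal part, had 10.5, 11.4, 10 and 14.1 against 7.47, 3.08, 5.90 and 4.4 CPM (-1.13 ± 0.36, edgeR adjusted p = 0.0479). ERVB5_1-I_MM-int had 5.38, 2.53, 2.69 and 2.99 against 1.87, 1.65, 0.737 and 1.01 CPM (-1.34 ± 0.43, edgeR adjusted p = 0.0494), on 84 counts. The count filter asks for 2.28 CPM, unscaled, in 4 libraries. For RLTR51B_Mm and ERVB5_1-I_MM-int all 4 controls and 1 ethanol library reached it, so these names were tested because of their level in controls, which favours a lower value in ethanol. For ERVB4_1-I_MM-int and for RMER6B sense all 8 libraries reached it. All 3 antisense names still separated the groups without their largest copy. That copy held only 5.26% of the counts of RLTR51B_Mm, 7.14% of ERVB5_1-I_MM-int and 11.2% of ERVB4_1-I_MM-int. Leaving it out could therefore hardly end the separation, and nothing is drawn from it.

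RMER6B sense was different, since 1 copy carried the separation. The name had 23.3, 11.1, 11 and 10.9 CPM in controls and 6.61, 2.47, 6.82 and 2.87 CPM in ethanol (-1.57 ± 0.43, edgeR adjusted p = 0.0327). Copy 1160 had 53, 26, 14 and 3 counts in controls and 0, 0, 1 and 0 in ethanol. Without it the name had 9.73, 4.55, 7.57 and 10.1 against 6.61, 2.47, 6.63 and 2.87 CPM, and the groups overlapped. The antisense strand of RMER6B had a log2 fold change of 0.11 ± 0.45. The 4 calls all ended without control replicate 1, 2, 3 or 4, with limma-voom and with transposon names alone in the fit (edgeR or limma adjusted p up to 0.554), and kept their sign. Calls over all features fell in the same settings, from 1600 higher and 237 lower to 1 to 3 higher and 2 to 7 lower without any 1 control, to 1 and 7 with limma-voom, and to 0 and 1 with transposon names alone. Without any 1 control the log2 fold change was -1.87 to -1.55 for RLTR51B_Mm, -1.77 to -1.32 for RMER6B, -1.56 to -1.15 for ERVB5_1-I_MM-int and -1.27 to -1.12 for ERVB4_1-I_MM-int. With transposon names alone it was -1.10, -1.01, -0.72 and -0.56 in that order. Without ethanol replicate 4 those of RMER6B, ERVB4_1-I_MM-int and ERVB5_1-I_MM-int ended too, and without ethanol replicate 3 that of ERVB5_1-I_MM-int. Scaling by library totals ended all but that of RLTR51B_Mm. Over all alternative settings in which the name was tested, the call ended in 6 of 17 for RLTR51B_Mm and 8 of 18 for RMER6B. It ended in 10 of 18 for ERVB4_1-I_MM-int and 13 of 17 for ERVB5_1-I_MM-int.

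**Figure D4:**
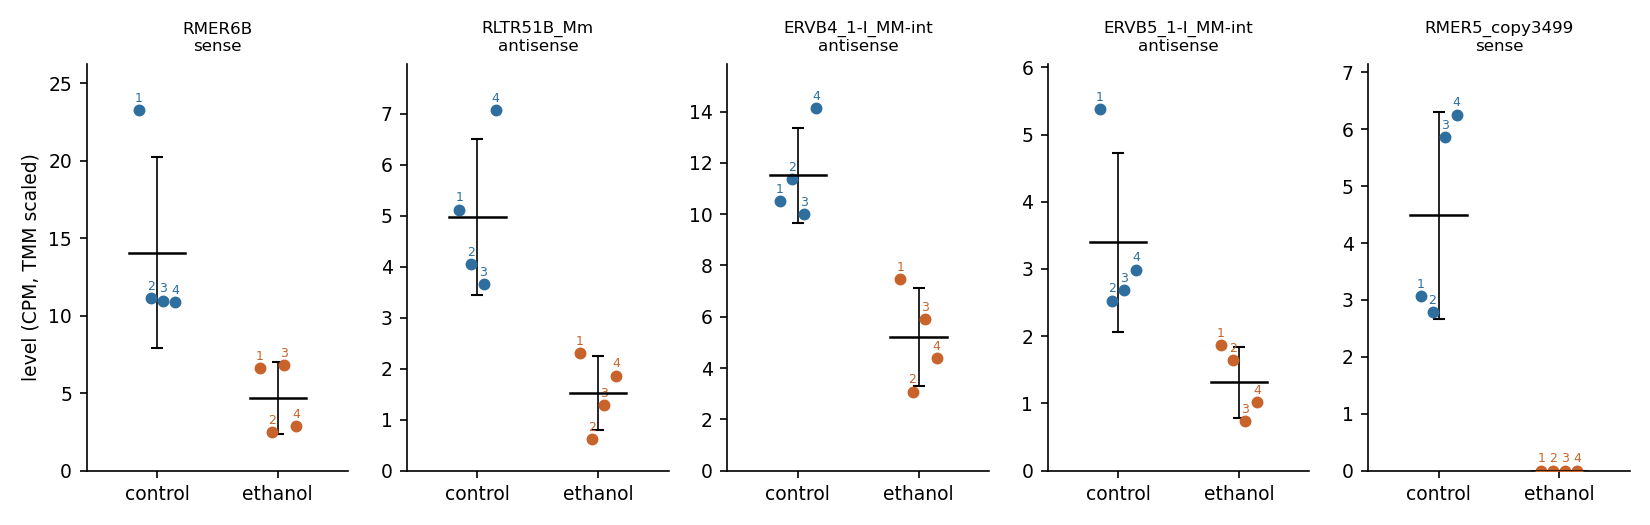
Level in CPM of the 4 names called lower in ethanol and of sense copy 3499 of RMER5; points are libraries numbered by replicate, bars are mean ± SD over 4 libraries, and each panel has its own axis from 0. In each panel the ethanol points lie below the control points, and the panels were chosen because they were called lower. For the RMER5 copy all 4 ethanol points are at 0, and it was tested because of its controls.

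Members with higher values in ethanol did not pass, and in RLTR13D3A1 and RMER6BA 1 library held most counts of the largest copy. RLTR13D3A1 sense had 8.45, 2.53, 4.88 and 1.63 CPM in controls and 8.47, 13.4, 5.90 and 3.38 CPM in ethanol (log2 fold change 0.82 ± 0.51), and 46 of the 75 counts of its largest copy were in ethanol replicate 2. RMER6BA antisense had 7.68, 6.57, 5.37 and 4.90 against 6.46, 18.1, 7.92 and 4.57 CPM (0.58 ± 0.43), and 82 of the 119 counts of its largest copy were again in ethanol replicate 2. Without that library the log2 fold change of RMER6BA was -0.02. RMER16A2 antisense had a log2 fold change of 0.30 ± 0.44 on 86 counts. In each of the 3 the groups overlapped.

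Next came the balance of the strands, which does not depend on scaling. The antisense to sense ratio of all members was 1.27, 1.22, 1.26 and 1.23 in controls and 1.21, 1.21, 1.19 and 1.22 in ethanol (log2 difference -0.04). The groups did not overlap, which gives the smallest two-sided p the exact permutation test can reach over 70 assignments (p = 0.0286), on a difference of 1.24 against 1.21. Without ethanol replicate 1, 2, 3 or 4 the exact permutation p was 0.0571, 0.0857, 0.0857 or 0.0571. With each name's largest copy left out the ratio was 0.948, 0.900, 0.927 and 0.864 in controls and 0.843, 0.905, 0.757 and 0.926 in ethanol, so it lay below 1 and the groups overlapped (exact permutation p = 0.286). Names outside the ERVK family separated the groups, with a ratio of 1.23, 1.26, 1.21 and 1.23 against 1.15, 1.14, 1.11 and 1.14. The ERVK family alone had 1.29, 1.2, 1.28 and 1.23 against 1.25, 1.25, 1.24 and 1.26, and overlapped (exact permutation p = 0.886). Without the RMER names the sign turned, with a log2 difference of 0.05.

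The 5 ETn names together had a ratio of 0.548, 0.598, 0.546 and 0.531 in controls and 0.513, 0.444, 0.336 and 0.448 in ethanol, without overlap. The ratios of BGLII, ERVB, MMERVK, MYSERV, RLTR10, RLTR13, RLTR44, RLTR51 and RMER names all overlapped, so ETn is 1 pick among these groups. Of single transposon names with at least 100 counts, 2.09% of 621 were lower in ethanol without overlap. Single ETn names did not share 1 direction. The interaction of strand and group in edgeR was -0.44 ± 0.30 log2 for ETnERV-int, -0.57 ± 0.31 for ETnERV2-int and -0.51 ± 0.26 for MMETn-int, but 0.13 ± 0.33 for ETnERV3-int and 0.70 ± 0.47 for the LTR RLTRETN_Mm. All 5 overlapped in their own ratios, and none passed (edgeR adjusted p 0.512 to 0.904).

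Over 110 members tested, 0 changed their strand ratio by the edgeR interaction, against 0.312% of 642 transposon names called more antisense and 0% more sense in ethanol. At an unadjusted edgeR p under 0.05 there were 10 members, 3 more antisense and 7 more sense in ethanol, against 10.3% of the 642. limma on the log2 ratios called 0 of the 110 members and also 0 of the 532 other transposon names. The smallest p was that of RMER6B, with ratios of 0.286, 1.07, 0.467 and 0.550 in controls and 1.78, 1.33, 1.76 and 1.71 in ethanol (1.65 ± 0.38, edgeR adjusted p = 0.119). Without sense copy 1160 its ratios were 0.684, 2.61, 0.677 and 0.595 against 1.78, 1.33, 1.81 and 1.71, and the groups overlapped. RMER6C had 6.45, 6.35, 6.92 and 8.10 against 8.02, 9.48, 14.3 and 9.18, and RLTR13D6 3.68, 2.60, 3.53 and 4.24 against 4.63, 4.47, 6.51 and 5.23. In the other direction were ERVB4_1B-LTR_MM with 1.93, 4.33, 5.33 and 6.75 against 1, 0.75, 1.12 and 2, RMER17A2 with 0.293, 0.324, 0.329 and 0.316 against 0.269, 0.242, 0.264 and 0.237, and RMER21A with -0.83 ± 0.31 log2. Of 102 members with a ratio in every library, 2 were lower in ethanol without overlap, RMER17A2 and ERVB4_1C-LTR_Mm, against 2.09% of 621 transposon names. MMERVK10C-int, RLTR13D6, RMER13A2 and, with copy 1160 counted, RMER6B were higher without overlap, against 3.54%. ERVB4_1C-LTR_Mm, MMERVK10C-int and RMER13A2 were named here after their values were seen.

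Single copies were tested in a fit over all rows of the table. Of 181 member rows with enough counts 1 was lower and 0 higher, against 0.94% and 2.59% of the 11170 rows tested, and 9 were lower and 0 higher at an unadjusted edgeR p under 0.05, against 9.01% and 18.8% of those rows. The row was sense copy 3499 of RMER5, a repeat the table places in ERV1. It had 12, 11, 24 and 23 counts in controls and 0 in each ethanol library (edgeR adjusted p = 0.0053). It passed the count filter through the controls alone, since 4 controls and 0 ethanol libraries reached the level the filter asks for, so a row tested in this way had to be lower in ethanol and its direction is no separate result. Against a floor of 3 counts over the ethanol group, its pooled CPM was at least 34.6-fold lower there. The row was picked from 181 by these same values, so this size is no separate result either. On its antisense strand the same copy had 98, 74, 82 and 128 counts in controls and 118, 28, 153 and 49 in ethanol, and overlapped. The call ended without control replicate 3 (edgeR adjusted p = 0.0659).

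Against the piRNA clusters counted in the same libraries, rows with many counts held nearly steady and rows with few did not. Sense rows with at least 1000 counts had 13.1, 12.5, 12.8 and 13.5 counts per 1000 cluster counts in controls and 12.4, 13.1, 13.5 and 13.9 in ethanol, so the highest library was 1.12 times the lowest. Antisense rows of that kind had 17.8, 16.8, 17.3 and 17.1 against 16.3, 16.2, 16.4 and 16.7, a span of 1.10 times, and here every ethanol library lay below every control. Sense rows with 1 to 5 counts had 8.46, 10, 6.81 and 4.67 against 6.30, 5.66, 2.80 and 5.32, a span of 3.57 times, and the groups overlapped. Other transposon rows with at least 1000 counts spanned 2.46 times sense and 1.13 times antisense. Those with 1 to 5 counts spanned 3.67 times sense and 3.89 times antisense, so the spread of rows with few counts was not particular to the members. The clusters themselves ran from 57292 CPM in ethanol replicate 2 to 296825 CPM in ethanol replicate 3. The sources used here do not say whether a read was counted both for a copy and for a cluster, and the division by total count was chosen after the values were seen.

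**Figure D5:**
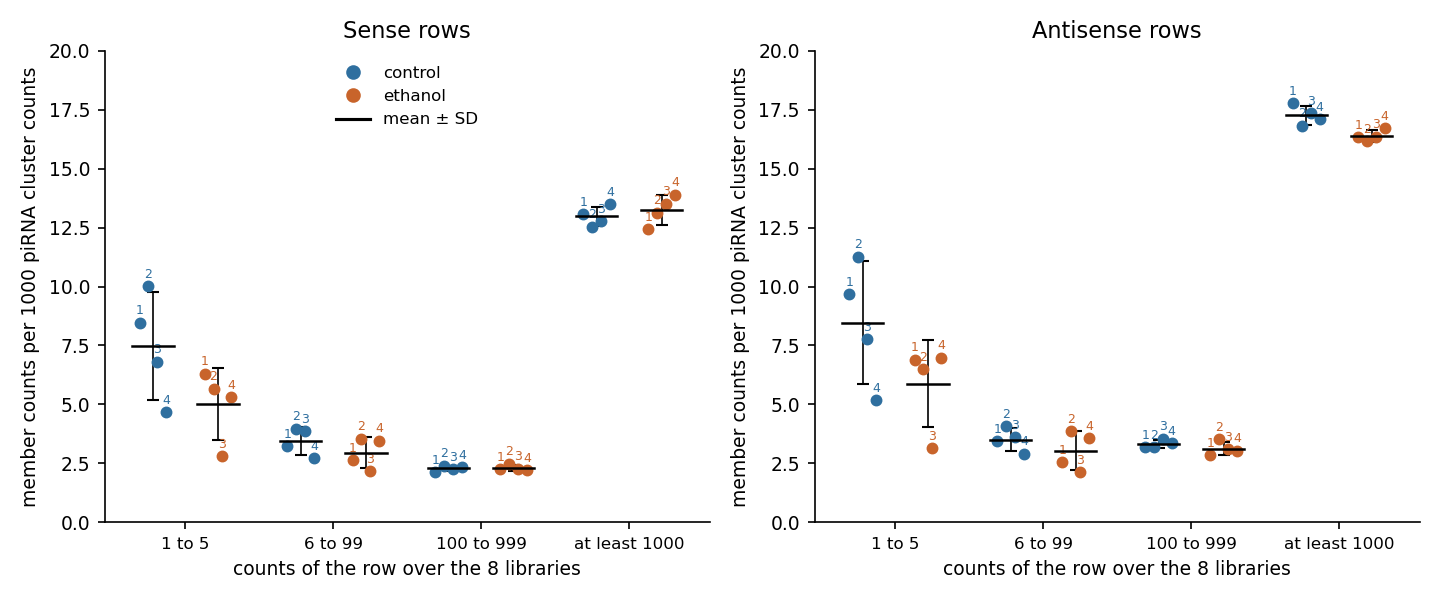
Member counts per 1000 piRNA cluster counts (vertical axis), by the total count of the row over the 8 libraries (horizontal axis) and strand; points are libraries numbered by replicate, bars are mean ± SD over 4 libraries. Rows with at least 1000 counts keep to a narrow band (12.4 to 13.9 sense), while rows with 1 to 5 counts spread from 2.80 to 10 sense.

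Compared with the names starting with IAP, another large ERVK family, the members showed no separation. The sense ratio of members to IAP was 15.0, 12.6, 12.6 and 13.7 in controls and 15.8, 6.21, 19.9 and 16.2 in ethanol (log2 difference -0.01, two-sided exact permutation p = 1). Its sign turned without ethanol replicate 2, to 0.36, or without control replicate 1, to 0.04. The antisense ratio was 7.43, 6.95, 6.06 and 6.02 against 7.08, 7.29, 6.43 and 7.15 (log2 difference 0.08, exact permutation p = 0.286). IAP was itself more antisense than sense in every library, with ratios of 1.03 to 3.68. With the largest copy of each IAP name left out its mean ratio was 1.42 in controls and 1.11 in ethanol, and ethanol replicate 2 had 0.450, so there not every library was more antisense.

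Transcripts of genes that silence such elements were read from mRNA exon counts. Of 50 listed gene symbols of histone methylation, DNA methylation and the piRNA pathway, 48 were in the table and 25 had enough counts. Tasor and Fam208a on the list are symbols of the same gene, which was counted as Fam208a. Cbx1, a heterochromatin protein that binds methylated histone H3, had 1.28, 1.01, 1.46 and 2.18 CPM in controls and 4.45, 8.84, 3.13 and 3.55 CPM in ethanol (1.73 ± 0.45 log2, edgeR adjusted p = 0.0304). Atrx, a chromatin remodeller of heterochromatin, had 7.68, 6.83, 10 and 6.26 CPM in controls and 18.0, 51.6, 9.58 and 18.1 CPM in ethanol (1.65 ± 0.48, edgeR adjusted p = 0.0375). That is 2 of 25 higher and 0 lower, with a median of 0.61, against 23.8% of 6532 mRNA exon features higher and a median of 0.88. Epithelial markers were higher in the same libraries, with the sums given above, and their part in these 2 values was not tested.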

How the data were processed

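The table the authors deposited holds raw whole-number counts, 1 column per library and 1 row per feature, per the file headers. The extraction and library reagents (Trizol, Qiaseq) are named per the labels' protocols. Aligner, counting rule, strand setting, use of molecular identifiers and genome build are not stated in the sources used here, and neither coordinates nor sequences are printed. Copies sharing reads are uncertain, as are overlapping repeats.

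Rows of 1 name and type were summed and all features fitted together with edgeR 4.0.16 in R 4.3.3 (TMM, filterByExpr with a minimum count of 10, robust quasi-likelihood fit, Benjamini-Hochberg adjustment, threshold 0.05). Of 273 name and strand sums 186 passed the count filter; a name high in 1 group alone could pass through that group: all 4 controls but fewer ethanol libraries reached the filter's level in 12 sense and 12 antisense names, and the reverse held in 2 and 0. Strand ratios were fitted with a term per library, strand, and strand by group, over all transposon names, and single rows as names were. For sums and ratios of all members, all 70 assignments of the 8 libraries to groups gave a two-sided exact permutation p; no p is given for groups of names. The fits were tested on simulated counts. Alternatives used limma 3.58.1, DESeq2 1.42.0, other scalings, count filters and denominators, each library left out, pairs of ethanol libraries with like sample codes, and replicate blocks; 4 alternatives (ERVK names alone for sums and for ratios, sums against piRNA clusters, and the strand ratio of RMER6B without its largest sense copy) were added after seeing the data. Plots were made with Python 3.11.15 and matplotlib 3.10.9.

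The members, lists and tests were chosen with earlier results of these data known. Members named are those with the highest CPM per strand (6) and per group of names, those past the threshold, 3 per direction by smallest p, and for copies the 5 with the highest CPM per strand. For strand ratios they are the 3 at each end and 3 per direction by smallest p. Silencing genes named are those past the threshold.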

Additional observations from a re-analysis of the deposited data

Results flagged for a closer look

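Of 88 groups of 4 libraries examined among the members named in the text, 5 held a library far from the other 3; chance gives about 1 in 20 groups. RMER6B sense had 23.3 CPM in control replicate 1, where the next control had 11.1, and 53 of the 97 counts of its copy 1160 were in that library. ERVB5_1-I_MM-int antisense had 5.38 CPM in control replicate 1, with the next control at 2.99. ERVB4_1B-LTR_MM sense had 3.58 CPM in control replicate 1, against 1.09 in the next control. RLTR10B2 antisense had 18.6 CPM in ethanol replicate 3, with the next ethanol library at 2.26, and its copy 174 had 90 counts there and 0 in each of the other 7 libraries. RMER17A-int sense had 20.6 CPM in ethanol replicate 2, against 6.63 in the next, and its copy 126 had 95 counts there.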

How the results depend on the processing

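The counts of lower names were small and moved with most settings. Sense, 1 name became 0 with library totals, limma-voom or transposon names alone in the fit, 2 without a count filter or without ethanol libraries 3 and 4, 9 with DESeq2's Wald test and 0 to 6 without 1 library at a time. Antisense, 3 became 1 with library totals, a count filter of 30 or without ethanol libraries 3 and 4, 5 without ethanol libraries 1 and 2, 14 with the Wald test, 0 with limma-voom or transposon names alone, and 0 to 8 without 1 library (0 without each control, 6 and 8 without ethanol replicates 1 and 3). With the replicate number as a block the counts were 8 sense and 14 antisense, and 3 lower rows. Lower calls over all features moved in the same settings, from 237 of 13513 to 804 with the block and 824 with the Wald test. They were 409 of 14056 and 839 of 14826 without ethanol replicates 1 and 3, 101 with library totals and 7 with limma-voom. Lower rows other than members went from 104 to 451 of 10989 with the block. Same-numbered libraries of the 2 groups correlated at 0.341, 0.209, -0.127 and -0.020, so the numbers are not taken to pair them. Of rows, 1 lower became 0 with a count filter of 30 and 0 to 8 without 1 library. Of 35 named names and 10 named copies not past the threshold, 24 and 9 turned sign in at least 1 setting, and 0 of those turned values passed. Names more antisense in ethanol went from 0 to 1 without a count filter or without control replicate 2. The log2 sense sum as a share of all transposon counts was 0.031 (exact permutation p = 0.914). The sense ratio to IAP was 0.0447 without control replicate 1 and 0.358 without ethanol replicate 2, within -0.202 to 0.358 over all libraries left out in turn. The log2 antisense to sense ratio of all members was -0.0884 with each name's largest copy left out (groups overlapping, exact permutation p = 0.286), 0.0487 without RMER names, -0.0563 as a median over names, 0.00351 for ERVK names alone, -0.0405 with sign flips over replicate numbers (exact p = 0.125, the smallest 16 flips can give), and -0.0488 to -0.0311 without 1 library. The cause of these shifts was not tested. RLTR51B_Mm and ERVB5_1-I_MM-int had 114 and 84 counts in all.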

Other observations

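RMER17A-int, an internal part of the RMER17 group, was mostly antisense, and control replicate 2 stood apart in it. That library had 17 antisense counts, against 640, 499 and 412 in the other controls and 209 to 699 in ethanol libraries. Its largest antisense copy, number 197, had 1 count there, against 290, 233 and 184 in the other controls and 101 to 325 in ethanol libraries. The sense strand of the name had 22 counts in control replicate 2 and 23 to 36 in the other controls. The name was chosen after its values were seen.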
